A study of Mus musculus with 7 samples.

Results

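In J558 tumours of mice, 10 genes of the matrix metalloproteinase (MMP) and tissue inhibitor of metalloproteinase (TIMP) families were followed among 14739 named genes on the array. They were taken by gene symbol and were measured by 14 of 23978 probes, with 2 probes each for Mmp13, Mmp8, Mmp3 and Timp3 and 1 probe for each of the other genes. The family was picked because Mmp13 had already been seen at a several-fold higher signal in tumours of OPP-treated mice by both of its probes. The values of Mmp13 are therefore a description and carry no p-value. The other 9 genes entered by family name only, although earlier results of these data were known when they were picked.

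The tumours had grown from J558 cells, a mouse myeloma line that secretes IgA, injected under the skin of the neck of male BALB/c mice whose age is 10 weeks in the labels. The control group (4 tumours) drank distilled water and the treatment group (3 tumours) drank OPP, a water extract of oil palm phenolics, at 1500 ppm gallic acid equivalents for 4 weeks, and all mice ate standard chow. Both groups carry the same single cell line, and RNA came from the whole excised tumour, host cells included. The labels number the samples of a group as replicates without naming the mice, so the spread behind each p-value is that of these 7 samples and may be technical in part. Each sample was hybridised to 1 single-colour array, and the values are the authors' background-subtracted, normalised signal intensities on a linear scale.

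MMPs are zinc-dependent endopeptidases that are made as inactive proenzymes and, once activated, cut collagens and other proteins of the extracellular matrix. TIMPs block them by binding to the active site. In tumours much of the MMP output is known to come from host fibroblasts, macrophages and neutrophils as well as from the tumour cells. In bulk tumour RNA, fewer cells of a type and less RNA per cell cannot be told apart.

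A probe counted as above background on an array when its signal exceeded a limit of 20.6 to 26.7, set from the noise of that array. Of all probes, 10371 lay above the limit on every array of at least 1 group and were tested, among them 11 of the 14 probes of the MMP and TIMP genes. Over the tested probes 0 (0.00%) had an adjusted p under 0.05 in limma and 0 in a Student's t-test on log2 signals. At an unadjusted p under 0.05 there were 971 (9.36%) and 909, and in limma 5.81% were higher and 3.55% lower in OPP tumours. The methods name this t-test for the statistics of the study in general. The authors called array genes with the Illumina custom error model, which was not run here. Some arrays stood apart in markers of host cells. The summed signal of 9 measured T and NK cell markers was 182 in control replicate 1 and 74.2 in OPP replicate 3, against 708 to 2331 on the other arrays. Keratinocyte markers summed to 1626 in control replicate 4 and 1690 in OPP replicate 2, against 14.3 to 31.2 elsewhere. Skeletal muscle markers (13 measured, all above the limit on at least 1 array) summed to 7904 to 35017 in control and 323 to 5872 in OPP tumours. Of 9 measured plasma cell markers, the type that J558 cells represent, 8 lay above the limit on all 7 arrays, with summed signals of 43282 to 49612 in control and 45166 to 49214 in OPP tumours.

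Mmp13, or collagenase 3, which cuts fibrillar collagens, had higher signals in OPP tumours by both probes, the contrast for which it was chosen. By its brightest probe the 4 control tumours had signals of 329, 240.2, 163 and 169. The 3 OPP tumours had 721, 908 and 1507. All OPP tumours lay above all control tumours, control replicate 1 being the highest of its group and OPP replicate 3 the highest of all. The log2 difference (OPP minus control) was 2.21 (SE 0.32), a 4.61-fold higher geometric mean. The second probe was dimmer, with 27.6, 10.0, 16.5 and 10.7 in control and 95.4, 99.8 and 242 in OPP tumours. Only control replicate 1 lay above the limit among the control arrays, whereas all 3 OPP arrays did. The probe therefore entered the test through the OPP group, where it is high, and its fitted log2 difference of 3.15 rests on control values mostly not above background and is no measured size. Both probes put the OPP tumours in the same order, replicate 1 lowest and replicate 3 highest. These 2 probes were the only ones of the 11 whose groups did not overlap. Over all tested probes, groups did not overlap for 9.70%, with OPP higher for 5.91% and lower for 3.79%. Nothing is read from the count, since Mmp13 was picked on this contrast.

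**Figure D1:**
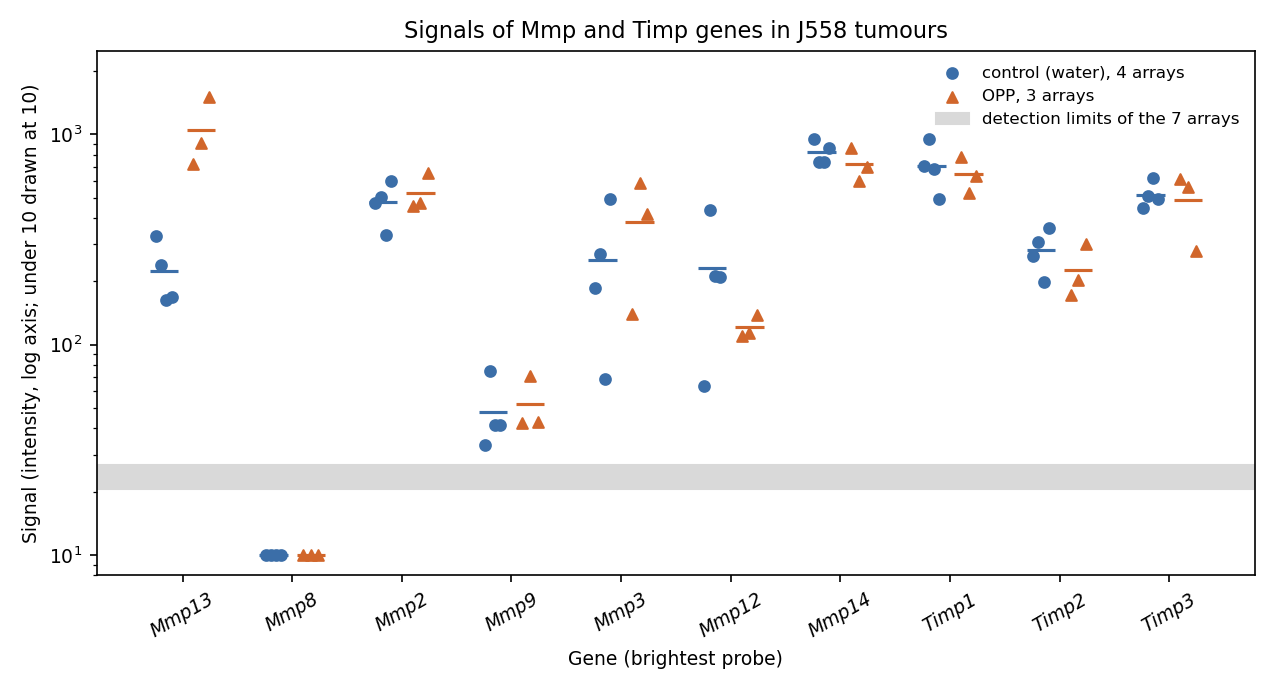
Signal intensity (log axis, values under 10 drawn at 10) of the brightest probe of each gene on the 4 control (circles) and 3 OPP (triangles) arrays, with bars at the group means and a grey band from 20.6 to 26.7 for the detection limits. Only Mmp13 shows groups that do not overlap, and Mmp8 lies below the band on every array; levels of different genes come from different probes and are not comparable.

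The difference of Mmp13 was similar whichever array was left out. Its sign could not turn, since all OPP signals lay above all control signals, so only the size is described. The log2 difference of its brightest probe was lowest without OPP replicate 3 (1.91) and highest without OPP replicate 1 (2.44). It was 2.11 without both arrays that were low in T and NK cell markers, and 2.15 without both arrays that held keratinocyte signals. The largest signal within a group was 2.02 times the smallest in control and 2.09 times in OPP tumours.

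Markers of the cell types in which Mmp13 is well known were set beside it. Of 11 measured bone and osteoclast markers, 8 lay above the limit on no array, including Ibsp, Bglap and Sp7 of osteoblasts and Col10a1 of hypertrophic chondrocytes. The summed signal of the list was 4771 to 5757 in control and 6097 to 6947 in OPP tumours and rested mainly on Ctsk, the collagen-degrading cathepsin K. Ctsk had 4597, 4491, 4492 and 3735 in control and 5625, 5566 and 4888 in OPP tumours, a log2 difference of 0.31 (SE 0.11, adjusted p = 0.485 from limma). Alpl, alkaline phosphatase, had a log2 difference of 0.21 (SE 0.10, adjusted p = 0.552 from limma). The groups did not overlap for either gene, Ctsk and Alpl being higher in each OPP tumour, as were 5.91% of all tested probes, and both were named after their values were seen. The third tested gene of the list, Acp5, the tartrate-resistant acid phosphatase of osteoclasts, went the other way, with a log2 difference of −0.30 (SE 0.18, adjusted p = 0.638 from limma) and overlapping groups. The skeletal muscle sum given above also separated the groups, in the opposite direction to Mmp13. Adipocyte markers had summed signals of 729 to 2688 in control and 347 to 833 in OPP tumours, and these ranges overlapped. All 3 tested of 7 measured had log2 differences below 0, among them Car3 (−1.64, SE 0.55, adjusted p = 0.462 from limma) and Adipoq, which encodes adiponectin (−1.49, SE 0.53, adjusted p = 0.478 from limma), while Plin1 and Retn lay above the limit on no array. The part of these cell types in the Mmp13 signal was not tested.

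Mmp13 lies in a run of 10 MMP genes on mouse chromosome 9 that also holds Mmp12, Mmp3 and Mmp8, in that order from Mmp13, with Mmp1b between Mmp12 and Mmp3 and with Mmp1a, Mmp10, Mmp27, Mmp20 and Mmp7 filling the rest. The 100 bases before the annotated start of these 4 genes are shown as a description. By signal, Mmp13 separated the groups, the contrast on which it was picked. Mmp12 and Mmp3 were measured without doing so, and Mmp8 lay below background. Whether the sequences bear on the signals was not tested. Sequences are from RefSeq (build GRCm38.p6), which held promoters for 8 of the 10 genes, and all lie on the + strand. Capitals mark TGANTCA, the letters that AP-1 factors such as Fos and Jun bind, and TATAA, the core of a TATA box, both searched on both strands, with no overlap between matches.
Mmp13, chr9:7272414-7272513: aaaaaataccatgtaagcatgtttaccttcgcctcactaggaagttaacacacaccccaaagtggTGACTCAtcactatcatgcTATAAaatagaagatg
Mmp12, first start, chr9:7344297-7344396: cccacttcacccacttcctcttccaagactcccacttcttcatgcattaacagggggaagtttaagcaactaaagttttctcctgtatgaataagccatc
Mmp12, second start, chr9:7347274-7347373: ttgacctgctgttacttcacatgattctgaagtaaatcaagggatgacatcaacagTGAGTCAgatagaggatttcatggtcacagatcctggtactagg
Mmp3, chr9:7445722-7445821: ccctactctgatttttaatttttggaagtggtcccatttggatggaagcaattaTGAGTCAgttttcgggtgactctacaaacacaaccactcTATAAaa
Mmp8, chr9:7558329-7558428: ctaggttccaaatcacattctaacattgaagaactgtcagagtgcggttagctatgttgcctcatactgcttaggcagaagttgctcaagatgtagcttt

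The Mmp13 and Mmp3 windows held both motifs, the window of the second Mmp12 start held TGANTCA alone, and the windows of Mmp8 and of the first Mmp12 start held neither. In Mmp13 the TGANTCA match began 35 bases before the start and the TATAA match 16 bases before it. In Mmp3 they began 46 and 7 bases before it. Among 32851 RefSeq promoters, a window of 100 bases held TGANTCA in 2.73%, TATAA in 10.2% and both in 0.402%. Of the other 4 genes with a promoter in the table, Timp3 had TATAA, and Timp1, Timp2 and Mmp14 had neither motif in this window. These matches describe letters and not bound sites.

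Mmp3, or stromelysin 1, which degrades matrix proteins other than fibrillar collagen and can activate other pro-MMPs, varied more between tumours of a group than it differed between the groups. Its brightest probe had 186, 269, 68.6 and 492 in control tumours and 141, 586 and 419 in OPP tumours. Control replicate 3 was lowest and OPP replicate 2 highest, and the groups overlapped. The log2 difference was 0.68 (SE 0.72, 95% interval −0.99 to 2.36, adjusted p = 0.784 from limma). The second probe gave 127, 195, 41.4 and 391 in control and 113, 437 and 366 in OPP tumours, with a log2 difference of 0.89 (SE 0.78, adjusted p = 0.739 from limma). Both probes ordered all 7 arrays identically. The within-group SD of the brightest probe was 1.15 on the log2 scale, larger than that of 99.1% of tested probes.

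The highest Mmp3 signals of each group stood in the arrays with keratinocyte markers, control replicate 4 and OPP replicate 2. Krt14, a keratin of basal epidermis, had 1217 and 1388 in these arrays and lay below 0 on the other 5. Krt10 of upper epidermis had 256 and 230.1 there, and 10.2 to 31.2 elsewhere. None of the 7 measured markers lay above the limit on all 7 arrays, and Trp63 and Ivl did so on none. Without these arrays, an alternative chosen after seeing the data, the log2 difference of Mmp3 was 0.69 (SE 0.72, adjusted p = 0.833 from limma), beside 0.68 with all 7. The single arrays moved it in opposite directions, to 1.11 without control replicate 4 and to 0.26 without OPP replicate 2, and it ran from 0.16 without control replicate 3 to 1.29 without OPP replicate 1. OPP replicate 3 had a summed keratinocyte signal of 31.2 and an Mmp3 signal of 419. The part of keratinocytes in the Mmp3 signal was not tested.

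**Figure D2:**
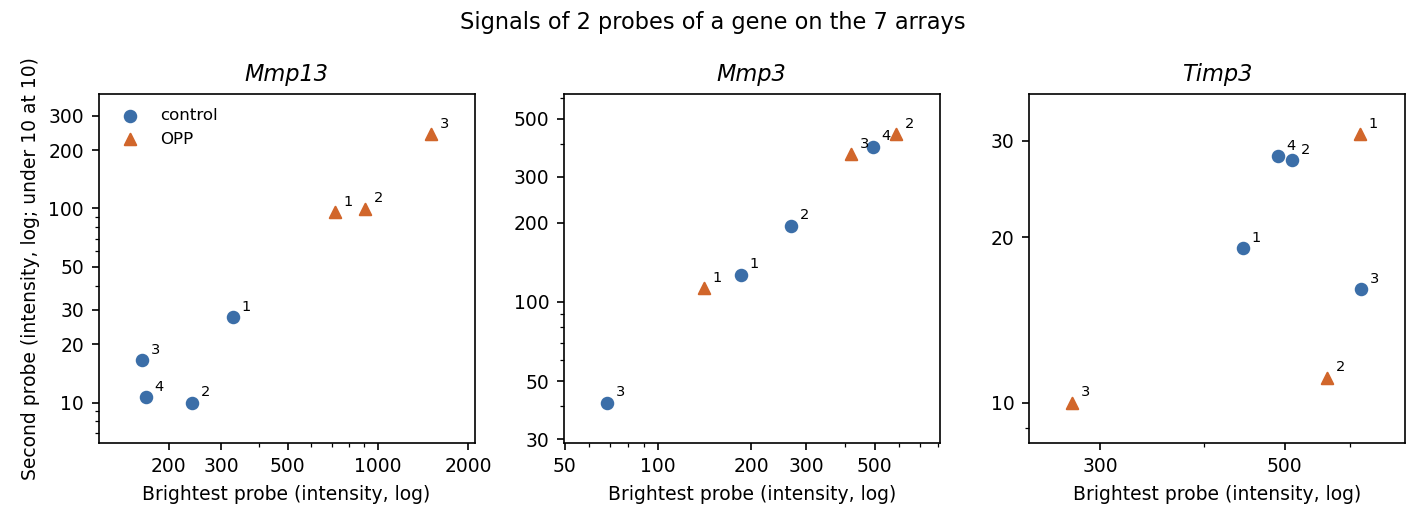
Signals of the 2 probes of Mmp13, Mmp3 and Timp3 on each array (both axes intensity on a log scale, values under 10 drawn at 10; circles control, triangles OPP, numbers the replicates). The 2 Mmp3 probes order the 7 arrays identically, the Mmp13 probes set the OPP arrays (721 to 1507 by the brightest probe) apart from the control arrays, and the Timp3 probes order the arrays differently apart from OPP replicate 3, lowest by both.

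Mmp12, the macrophage elastase, had 63.4, 439, 212 and 209 in control tumours and 110.1, 114 and 139 in OPP tumours. The OPP tumours lay close together, inside the range of the control tumours, among which control replicate 1 was lowest and control replicate 2 highest. The log2 difference was −0.64 (SE 0.57, 95% interval −1.96 to 0.68, adjusted p = 0.743 from limma). Without control replicate 1 it was −1.16 (SE 0.30, unadjusted p = 0.00643 and adjusted p = 0.292 from limma), all 3 OPP tumours then lying below all control tumours. Leaving out the lowest control tumour lowers the difference by construction. Of the 10371 tested probes, 648 were then lower at an unadjusted p under 0.05 in limma, beside 368 with all 7 arrays. Without control replicate 2 the log2 difference of Mmp12 was −0.23 (SE 0.47, unadjusted p = 0.637 and adjusted p = 0.942 from limma). Over the alternatives the adjusted p of Mmp12 ran from 0.292 to 1.0 (limma and the methods' t-test). The summed signal of the macrophage markers had the same lowest and highest control array as Mmp12. So had the sums of the neutrophil and of the T and NK cell markers, so this is not particular to macrophage markers. The macrophage sum was 5158 in control replicate 1 and 11293 in control replicate 2. It was 8886 and 10910 in the other control tumours, and 8753, 7238 and 6073 in OPP tumours. Single macrophage markers differed in this. Among control tumours C1qa, C1qb and C1qc shared both arrays with Mmp12. Adgre1 and Lyz2 were lowest in control replicate 1 but highest in control replicate 4. Mrc1 was lowest in control replicate 3 and highest in control replicate 1. Of 10 measured macrophage markers 6 lay above the limit on all 7 arrays, with Adgre1, C1qa, C1qb and Lyz2 among them, and Msr1, Itgam and Cd163 on none. OPP replicate 3 had the lowest macrophage sum of its group but the highest Mmp12 signal. The part of macrophages in the Mmp12 signal was not tested.

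Mmp8, the collagenase that neutrophils store in their granules, was not above background on any array by either probe. The signals ran from −12.2 to 7.5 by one probe and from −12.0 to −1.5 by the other, so no fold is given. The neutrophil granule genes Ngp, Ltf and Elane and the chemokine receptor gene Cxcr2 likewise lay above the limit on no array. Of 10 measured neutrophil markers 1, Csf3r, lay above it on all 7. Their summed signal was 158, 1412, 199 and 384 in control and 217, 332 and 99.1 in OPP tumours.

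Control replicate 2, the tumour with the highest neutrophil sum, also had the highest signal of Mmp9, or gelatinase B, which degrades denatured and basement membrane collagen. Mmp9 had 33.5, 75.3, 41.6 and 41.5 in control and 42.5, 71.0 and 42.7 in OPP tumours. One tumour of each group stood above the rest, control replicate 2 and OPP replicate 2. The log2 difference was 0.14 (SE 0.30, 95% interval −0.56 to 0.85, adjusted p = 0.889 from limma), and its sign turned without OPP replicate 2 (−0.10). S100a8 and S100a9, which encode the calprotectin subunits of neutrophils and monocytes, had 494 and 651 in control replicate 2 and 98.6 and 83.6 in OPP replicate 2. On the other arrays they were at most 75.6 and 64.6. These genes made up most of the neutrophil sum of control replicate 2 and were named after their values were seen. Csf3r was likewise highest of its group in control replicate 2 and in OPP replicate 2. Other markers ran otherwise. Camp was highest in control replicate 1 (45.3) and lowest of all in OPP replicate 2 (16.1). Lcn2 was highest in control replicate 4 (79.6), with 17.6 in OPP replicate 2. The part of neutrophils and monocytes in the Mmp9 signal was not tested.

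Mmp2, or gelatinase A, which fibroblasts secrete, had 472, 505, 331 and 600.1 in control tumours and 457, 472 and 659 in OPP tumours. The groups overlapped, with control replicate 3 below and OPP replicate 3 above all other arrays. The log2 difference was 0.16 (SE 0.22, 95% interval −0.36 to 0.68, adjusted p = 0.832 from limma), and its size fell to less than 0.01, with the opposite sign, without OPP replicate 3 or without control replicate 3. Mmp14, the membrane-type protease that activates pro-Mmp2 at the cell surface, had 950.3, 740, 743 and 861 in control and 864, 598 and 699.5 in OPP tumours. Control replicate 1 was highest and OPP replicate 2 lowest. The log2 difference was −0.20 (SE 0.16, 95% interval −0.56 to 0.16, adjusted p = 0.703 from limma), so its interval leaves out a change as large as 1 log2 unit in either direction. The within-group SD of Mmp14, 0.22 on the log2 scale, was the smallest of the family and lay near the median of 0.19 over all tested probes.

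The 3 inhibitors had log2 differences below 0, and none was past the spread of the arrays. Timp1, a secreted inhibitor induced in inflammation, had 705, 949.7, 682 and 492 in control and 785, 526 and 636 in OPP tumours. Its lowest and highest tumours were both controls, and the log2 difference was −0.10 (SE 0.23, 95% interval −0.65 to 0.44, adjusted p = 0.896 from limma). Timp2, which also takes part in activating pro-Mmp2 together with Mmp14, had 265, 306, 199 and 359 in control and 172, 204 and 302 in OPP tumours. It had the most negative difference of the inhibitors, −0.33 (SE 0.25, 95% interval −0.91 to 0.26, adjusted p = 0.700 from limma), which became −0.56 when OPP replicate 3 was left out (adjusted p = 0.642 from limma). Timp2 and Mmp2 shared control replicate 3 as the lowest and control replicate 4 as the highest control tumour, and OPP replicate 3 as the highest OPP tumour.

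Timp3, the inhibitor that binds to the extracellular matrix, had 446, 511, 618.5 and 491 in control tumours and 617, 563 and 278 in OPP tumours by its brightest probe. OPP replicate 3 lay below the other 6 arrays, and it was the array with the highest Mmp13 signal. The log2 difference was −0.16 (SE 0.28, 95% interval −0.81 to 0.48, adjusted p = 0.862 from limma), but it turned to 0.20 (adjusted p = 0.797 from limma) when that array was left out. The second probe, at 7.7 to 30.9, was above the limit on 2 of 4 control and 1 of 3 OPP arrays and was not tested.

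The fibroblast marker sum was 3077, 4810, 3024 and 5193 in control and 2881, 3700.4 and 3265 in OPP tumours. Of its 12 measured markers 10 lay above the limit on all 7 arrays, Postn on none. Control replicates 2 and 4, highest in this sum, were also the control tumours with the highest Mmp2, Mmp3 and Timp2 signals. The macrophage sum and the T and NK cell sum were highest in the same control tumours, so this is not particular to fibroblast markers. Dcn, the brightest of the list, had 995, 2253, 1208 and 2428 in control tumours. Some markers ran otherwise, Col6a1, Pdgfrb and Mfap5 being highest in control replicate 1. Among OPP tumours the fibroblast sum was highest in replicate 2, as was Mmp3, while Mmp2 and Timp2 were highest in replicate 3. Of the 10 tested fibroblast markers 5 had log2 differences above 0 and 5 below, with a median of −0.04. Those with the smallest p, named after their values were seen, were both below 0. Dpt, which encodes dermatopontin, had a log2 difference of −1.09 (SE 0.40, adjusted p = 0.485 from limma), and the collagen-binding Dcn, or decorin, had −0.73 (SE 0.36, adjusted p = 0.572 from limma). Col6a1, a chain of collagen VI, had the most positive difference of the list, 0.39 (SE 0.23, adjusted p = 0.638 from limma). The part of fibroblasts in these signals was not tested.

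**Figure D3:**
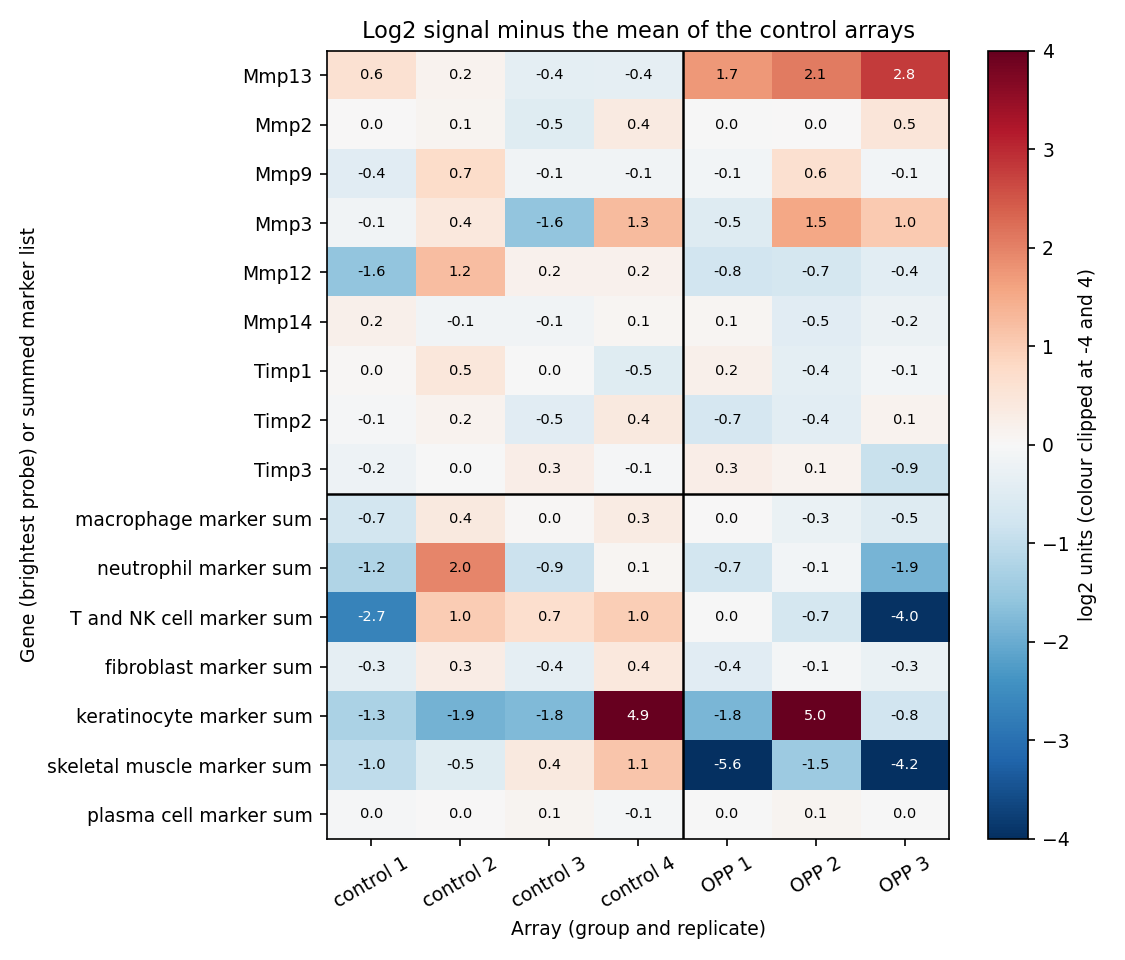
Log2 signal of 9 MMP and TIMP genes (above the line) and of the summed signals of 7 marker lists (below it) on each array, minus the mean of the 4 control arrays on the log2 scale (colour scale clipped at −4 and 4). Mmp13 is raised in all 3 OPP arrays and the muscle sum is low in them, while Mmp3, Mmp12 and Timp3 vary with single arrays.

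Across the family, 8 genes other than Mmp13 were tested, 3 with log2 differences above 0 and 5 below. Their median was −0.13, beside 0.01 over all tested probes. None of the 8 had an unadjusted p under 0.05, against 9.36% of all tested probes, and their adjusted p from limma ran from 0.700 to 0.896. Enumerating all 35 ways to divide the arrays 4 against 3, the two-sided exact permutation p of these genes ran from 0.286 to 0.743, where the smallest possible is 0.0286. The 9 tested genes, Mmp13 included, each had a within-group SD above the median of 0.19 over all tested probes. Mmp3 at 1.15, Mmp12 at 0.90 and Mmp13 at 0.51 were the most variable.

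**Figure D4:**
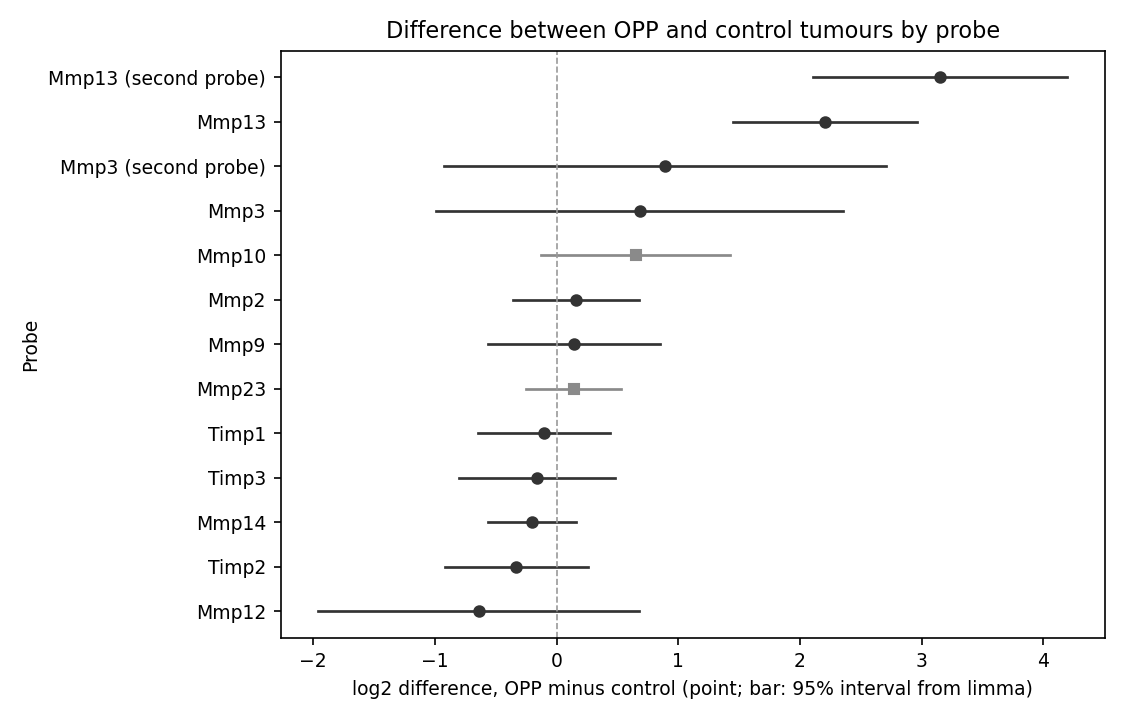
Log2 difference between OPP and control tumours (points, with bars for the 95% interval from limma) for the 11 tested probes of the MMP and TIMP genes (dark circles) and for Mmp10 and Mmp23 (grey squares). The intervals of the probes other than those of Mmp13 all include 0. The probes of Mmp13 are at 2.21 and 3.15. Mmp13 was chosen for its value here, so its points and bars are a description and no test. The 3.15 is no measured size, since its probe was above background on 1 of 4 control arrays and entered through the OPP group.

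Other MMP and TIMP genes were mostly at background. Of 14 measured, 11 were above the limit on no array: Mmp1a, Mmp1b, Mmp7, Mmp11, Mmp16, Mmp17, Mmp20, Mmp21, Mmp24, Mmp28 and Timp4. Mmp19 passed the limit on 2 control and 1 OPP arrays. Mmp10, or stromelysin 2, a neighbour of Mmp3, had 22.8, 67.0, 37.4 and 40.7 in control and 51.9, 74.7 and 59.4 in OPP tumours, a log2 difference of 0.65 (SE 0.33, adjusted p = 0.579 from limma). The groups overlapped through control replicate 2. Mmp23 had a log2 difference of 0.14 (SE 0.17, adjusted p = 0.806 from limma).

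Genes that activate or restrain MMPs gave 10 tested genes of 14 measured, 4 with differences above 0 and 6 below, a median of −0.01 and none at an unadjusted p under 0.05. The 3 with the smallest p were S100a10, Bsg and Anxa2. S100a10 and Anxa2, which form the plasminogen receptor annexin A2 tetramer, had log2 differences of −0.58 (SE 0.32, adjusted p = 0.606 from limma) and −0.27 (SE 0.19, adjusted p = 0.670 from limma). Bsg, or basigin, known as an inducer of MMPs, had 2563, 2649, 2565 and 2037 in control and 2924, 2856 and 2676 in OPP tumours. Its signal was higher in each OPP tumour than in any control tumour, as for 5.91% of all tested probes. The log2 difference was 0.21 (SE 0.12, adjusted p = 0.616 from limma). Reck, a membrane-anchored inhibitor of MMPs, had 65.8 to 74.4 in control and 66.4 to 74.9 in OPP tumours.

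The related ADAM and ADAMTS proteases gave 8 tested genes of 11 measured, 4 above 0 and 4 below, with a median of 0.02. Adamts5, which cuts the cartilage proteoglycan aggrecan, had 26.9, 29.2, 35 and 30.5 in control and 7.2, 23.0 and 22.5 in OPP tumours. Only 1 of 3 OPP arrays lay above the limit, so Adamts5 entered the test through the control group, where it is high. Its fitted log2 difference of −0.81 therefore rests on OPP values mostly not above background and is no measured size. Adamts5 was the 1 gene of these 8 at an unadjusted p under 0.05 in limma, beside 9.36% of all tested probes, and nothing is read from it. Adamts4 and Adam12 had log2 differences of 0.23 (SE 0.16, adjusted p = 0.662 from limma) and 0.34 (SE 0.42, adjusted p = 0.813 from limma).

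The matrix proteins that MMPs cut gave 11 tested genes of 14 measured, 8 above 0 and 3 below, with a median of 0.08 and none at an unadjusted p under 0.05. Lamc1, a laminin chain of basement membranes, had a log2 difference of −0.22 (SE 0.13, adjusted p = 0.621 from limma). Col3a1, a fibrillar collagen, had −0.25 (SE 0.16, adjusted p = 0.641 from limma), and Acan, or aggrecan, had 0.20 (SE 0.12, adjusted p = 0.621 from limma).

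Cytokines and transcription factors known to induce MMP genes gave 10 tested genes of 19 measured, 5 above 0 and 5 below, with a median of 0.04 and none at an unadjusted p under 0.05. Il1a, Tnf, Fosl1 and Ets1 were above the limit on no array. Of the AP-1 factors, Junb had 157, 165, 179.8 and 197 in control and 187, 196 and 275 in OPP tumours, a log2 difference of 0.31 (SE 0.16, adjusted p = 0.574 from limma). OPP replicate 3, highest in Mmp13, was also highest in Junb. Among control tumours replicate 1 was highest in Mmp13 but lowest in Junb. A link between the 2 genes was not tested. Fos had 187, 618, 513 and 608 in control and 369.7, 348 and 217 in OPP tumours, a log2 difference of −0.52 (SE 0.44, adjusted p = 0.725 from limma), and Jun had 0.12 (SE 0.14, adjusted p = 0.798 from limma).

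The genes whose log2 signal followed Mmp13 most closely over the 7 arrays, among 7189 other tested genes, were Ctsz, Nme6, Zkscan14, Galc and Eola1, with a Pearson r of 0.979, 0.978, 0.976, 0.975 and 0.973 as a measure of likeness only. All 7 arrays share the step between the groups, which by itself gives a high r. With the group means taken out, r was 0.887, 0.906, 0.817, 0.864 and 0.903. The genes were picked for their r over the same arrays, so these values are no separate check. Ctsz, which encodes the lysosomal protease cathepsin Z, had 9773, 9198, 8873 and 8768 in control and 10290.3, 11271 and 11339 in OPP tumours. Galc, which encodes the lysosomal enzyme galactosylceramidase, had 49.8, 51.9, 45.8 and 45.7 in control and 80.9, 81.2 and 91.5 in OPP tumours. The log2 differences were 0.26 for Ctsz and 0.81 for Galc, smaller than the 2.21 of Mmp13. Of the other family members the nearest to Mmp13 were Mmp2 (r of 0.42) and Mmp3 (0.41), and the farthest was Timp3 (−0.49). With the group means taken out, r was 0.48 for Mmp2, 0.29 for Mmp3 and −0.82 for Timp3, and the nearest was Timp2 (0.51, against −0.25 before).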

How the data were processed

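Signal intensities in the deposited value table are the authors' rank invariant normalised values, with background already subtracted, from Illumina MouseRef-8 version 1 BeadChips read out in BeadStudio 1.5.1.3 after removal of outlier samples. RNA samples of high integrity had been selected for the arrays. Slides and scan batches are not given in the sources used here. A second table of signals before normalization and detection scores (14 columns) stayed unused, since none of its headings can be tied to a sample.

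The table lists 24048 probes. Those lacking values (66) and the bacterial controls (4) were dropped. Gene names came from the platform annotation, with 19343 probes named and 4635 unnamed. Noise was estimated on each array from values below 0, and the limit was its SD times 2.33 (the one-sided 0.99 level). Tested were 10371 probes above the limit on every array of at least 1 group. Values under 10 were set to 10 and log2 taken. OPP was set against control in limma 3.58.1 (lmFit, then eBayes; R 4.3.3), two-sided, with Benjamini-Hochberg adjustment over all tested probes. The number of arrays limits the precision. Where a gene had several probes, the brightest stood for it. Between 44.4% and 47.0% of probes lay above the limit on an array. The procedure was tested on simulated data. Python 3.11.15, pandas 2.3.3 and matplotlib 3.10.9 were used for tables and plots.

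The genes of the family and all lists were chosen with earlier results of these data known. Named are all 10 genes, the 3 genes with the smallest p of each pathway list, the markers that define a cell type, and the 5 genes most like Mmp13. Dpt, Dcn, Col6a1, Pdgfrb, Mfap5, Ctsk, Alpl, Acp5, Car3, Adipoq, Reck, S100a8, S100a9, Csf3r, Lcn2, Krt14 and Krt10 were added after their values were seen. Alternatives covered normalization, floor, filter, variance model, the methods' t-test, averaging over probes, blocking on replicate number and leaving arrays out.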

Additional observations from a re-analysis of the deposited data

How the results depend on the processing

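The fit was repeated under 20 alternatives, 1 of them chosen after seeing the data (without control replicate 4 and OPP replicate 2 together). Mmp13 kept its sign in all of them. Leaving arrays out could not turn it, since all OPP signals lay above all control signals, so nothing is read from the kept sign. Its log2 difference lay between 1.91 and 2.68, the highest with the mean of its probes. That mean takes in the second probe, whose control values are mostly not above background, so 2.68 is no measured size either. By the brightest probe, with 1 array left out, the difference of Mmp13 lay between 1.91 and 2.44. The other 8 tested genes gave 160 values, of which 150 kept their sign and 0 reached an adjusted p under 0.05 (lowest 0.292 from limma). Mmp3, Mmp12, Mmp14 and Timp2 kept their sign throughout. With 1 array left out, the differences ran from 0.16 to 1.29 for Mmp3, −1.16 to −0.23 for Mmp12, −0.34 to −0.07 for Mmp14, −0.56 to −0.15 for Timp2, −0.0068 to 0.28 for Mmp2, −0.10 to 0.39 for Mmp9, −0.27 to 0.0501 for Timp1 and −0.38 to 0.20 for Timp3. The sign turned for Mmp2 without control replicate 3 (−0.0032), without OPP replicate 3 (−0.0068) and without control replicate 1 and OPP replicate 3 together (−0.0015). It turned for Mmp9 without control replicate 1 (−0.0043), OPP replicate 2 (−0.10) and control replicate 4 and OPP replicate 2 together (−0.15), for Timp1 without control replicate 2 (0.0501) and OPP replicate 2 (0.04), and for Timp3 without OPP replicate 3 (0.20) and without control replicate 1 and OPP replicate 3 together (0.13). Of the 8 genes, 0 to 1 had an unadjusted p under 0.05 when 1 array was left out, and 1 without control replicate 1 and OPP replicate 3 together; in both cases this was Mmp12. The cause was not tested.

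Over all tested probes the count at an adjusted p under 0.05 was 2 with quantile normalization and with a floor of 50, and 1 with the trended and robust prior, without control replicate 4, without OPP replicate 2, and without either pair of arrays. Those lower at an unadjusted p under 0.05 were 368, against 244 with the replicate block, 648 without control replicate 1 and 563 without control replicate 1 and OPP replicate 3 together. Same-numbered samples did not deviate together (correlations of −0.27, 0.08 and −0.16), beside −0.32 to 0.48 for pairs with different numbers. So few pairs cannot show whether they share more than a number. The replicate block gave 684 probes at an unadjusted p under 0.05 beside 971. It gave 2.09 for Mmp13, the value without control replicate 4, which has no partner and so adds nothing to that fit. The signals before normalization were not run as an alternative, because their columns match no sample. The second probe of Mmp13 lay above the limit on 1 of 4 control arrays, that of Timp3 on 2 of 4 control and 1 of 3 OPP arrays, and Mmp8 on none, so their signals over background limit what can be said of them.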
